A study of Mus musculus with 24 samples.

Results

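The nuclear genes of the mitochondrial respiratory chain and ATP synthase were examined in B cells with deletions in the genes of the transcription factors PU.1, SpiB or both. Genes were taken by symbol: those of NADH dehydrogenase (complex I), succinate dehydrogenase (complex II), the cytochrome bc1 complex (complex III), cytochrome c oxidase (complex IV) and ATP synthase (complex V), without pseudogenes and without Cox6a2. The symbols matched 83 of the 27179 genes in the count tables, with 35 in complex I, 4 in complex II, 8 in complex III, 19 in complex IV, 15 in complex V, and 2 (Atp5s and Atp5sl) that carry an ATP synthase name but are not structural subunits. Of these, 77 reached 0.5 CPM (counts scaled by library size) in at least 2 libraries of at least 1 stage. The tested sets held 76 of 12500 genes in naive cells, 77 of 12721 after CD40L+IL-4 and 75 of 12445 after LPS+IL-4. The 6 genes tested in no stage were Cox7b2, Cox8b and Cox8c with 0 counts, Uqcr11 with 2 counts over all 24 libraries, Ndufa4l2 with 15 and Cox4i2 with 20. Cox6b2 was left out after LPS+IL-4 and Cox7a1 was tested only after CD40L+IL-4.

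Oxidative phosphorylation passes electrons from NADH and succinate along complexes I to IV to oxygen, and complex V uses the resulting proton gradient to make ATP. Most subunits are encoded in the nucleus, while the mitochondrial genome encodes 13 that were not counted as members. Resting B cells keep a small mitochondrial mass, and activated B cells raise respiration as they grow and divide. PU.1 (encoded by Spi1) and SpiB (encoded by Spib) are closely related Ets family factors that bind sites built around GGAA, and other Ets factors, among them GABP, are known regulators of respiratory chain genes.

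RNA was sequenced from C57BL/6 lymph node B cells of 4 genotypes at 3 stages, with 2 libraries in each of the 12 groups. Control mice were Cd23T/+, where a BAC transgene drives Cre recombinase from the Cd23 regulatory sequences from the transitional B cell stage onwards. PU.1 cKO mice were Spi1fl/fl Cd23T/+, SpiB KO mice were Spi1fl/fl Cd23+/+ Spib-/- and so carried no Cre, and PU.1 SpiB DKO mice were Spi1fl/fl Cd23T/+ Spib-/-. The control genotype therefore shared the transgene with the PU.1 SpiB DKO and the PU.1 cKO but not with the SpiB KO, where Spib was absent from the germline and throughout development. Naive and activated B cells were sorted as CD3- B220+ CD138-. The activated cells had been cultured for 2 days with CD40L and IL-4 or with LPS and IL-4. The deletions remove only a part of each gene, so counts over whole genes are a partial check of the labels. The study notes that naive PU.1 SpiB DKO cells kept much of the floxed part of Spi1, so that group is not a complete double loss. Spi1 stood at 155 and 174 CPM in the naive control libraries, 59.5 and 53.3 in the PU.1 cKO, 163 and 163 in the SpiB KO and 103 and 110 in the PU.1 SpiB DKO, while Spib stood at 1472 and 1355, 2176 and 1923, 85.6 and 80.2, and 98.8 and 100 CPM in the same order. After CD40L+IL-4, Spi1 stood at 84.9 and 108 CPM in control and 32.5 and 25.6 in the PU.1 SpiB DKO. After LPS+IL-4, Spi1 was lower in the PU.1 cKO (44.2 and 41.2 CPM) than in control (72.0 and 60.7 CPM), but stood at 63.9 and 58.9 CPM in the PU.1 SpiB DKO. From reads over the floxed exon itself, the study reports full excision after CD40L+IL-4 and a similarly high efficiency after LPS+IL-4. Nothing in the labels says whether the 2 libraries of a group came from separate mice, so the p-values measure the spread between these libraries only.

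Libraries held 14231188 to 18194629 assigned reads in naive cells, 9598674 to 61640683 after CD40L+IL-4 and 22757630 to 73658850 after LPS+IL-4, and the members took between 0.907% and 1.66% of them. The B cell gene Cd79a was high in every library, while Cd3e stayed under 1 CPM. Plasmacytoid dendritic cell markers were unequal among the naive groups, with 12 of 14 tested higher in the PU.1 SpiB DKO, and summed levels of 3364 and 2988 CPM in control, 5535 and 4744 in the SpiB KO and 5337 and 4964 in the PU.1 SpiB DKO. T cell markers were 7 of 10 higher there, with sums of 122 and 76.3 CPM in control and 615 and 595 in the PU.1 SpiB DKO, of which Cd8a made up 266 and 233 CPM. Macrophage markers summed to 25.6 and 14.9 CPM in the naive control and 73.3 and 73.2 in the PU.1 SpiB DKO, where Csf1r stood at 0.185 and 1.001 CPM. Plasma cell markers were 10 of 12 higher in the PU.1 SpiB DKO after CD40L+IL-4 (2060 and 2389 CPM in control, 4852 and 4951 in the PU.1 SpiB DKO) and 10 of 11 higher after LPS+IL-4 (1429 and 1557 against 3413 and 3308 CPM). In the same PU.1 SpiB DKO comparisons, 18.2% of all genes tested higher in naive cells, 12.5% after CD40L+IL-4 and 25.6% after LPS+IL-4. The sort gate would remove CD3+ T cells and CD138+ plasma cells, and the part of any such cells in the results was not tested. In bulk RNA, fewer cells of a type and less RNA per cell cannot be told apart.

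Promoter sequences help to read the members against the Ets factors that were removed. RefSeq promoters of 300 bases, from 250 before to 50 after the start of transcription, were found for 69 of the 83 genes in GRCm38.p6. Both strands were searched for the letters CCGGAAG (Ets), GAGGAAGT (the longer form preferred by PU.1), GCGCANGCG (NRF1), AAGATGGC (YY1), CCAAT and CACGTG. The promoters of Atp5j, Cox6a1 and Ndufb7, which passed the test as higher in PU.1 SpiB DKO cells after CD40L+IL-4, are shown with their Ets letters in capitals, on either strand. The Atp5j promoter also holds the longer PU.1 form once, on the opposite strand and left in lower case. That of Atp5g1, which had the largest rise there, held no such match. Atp5j encodes coupling factor 6 of the ATP synthase stalk, and the promoter shown lies beside Gabpa, whose protein is the DNA-binding part of GABP. Its match begins 61 bases before the start site, that of Cox6a1 16 bases before, and that of Ndufb7 20 bases before. Another annotated promoter of Atp5j, at chr16:84835576-84835875, held none of the letters searched for and is not shown. Each sequence is given 5′ to 3′ on the strand of its gene.
Atp5j, chr16:84834927-84835226, minus strand: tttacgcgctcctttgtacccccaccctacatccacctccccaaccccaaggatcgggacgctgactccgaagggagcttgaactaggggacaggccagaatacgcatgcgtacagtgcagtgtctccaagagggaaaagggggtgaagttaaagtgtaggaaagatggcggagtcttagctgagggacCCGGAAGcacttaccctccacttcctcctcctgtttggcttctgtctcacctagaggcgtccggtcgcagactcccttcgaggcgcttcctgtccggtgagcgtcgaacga
Cox6a1, chr5:115348909-115349208, minus strand: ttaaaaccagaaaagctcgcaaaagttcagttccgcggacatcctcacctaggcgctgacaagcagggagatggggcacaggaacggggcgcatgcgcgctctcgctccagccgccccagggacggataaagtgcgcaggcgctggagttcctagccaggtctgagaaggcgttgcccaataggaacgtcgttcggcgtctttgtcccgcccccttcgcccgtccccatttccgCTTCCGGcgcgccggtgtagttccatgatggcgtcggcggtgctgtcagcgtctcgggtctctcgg
Ndufb7, chr8:83566508-83566807, plus strand: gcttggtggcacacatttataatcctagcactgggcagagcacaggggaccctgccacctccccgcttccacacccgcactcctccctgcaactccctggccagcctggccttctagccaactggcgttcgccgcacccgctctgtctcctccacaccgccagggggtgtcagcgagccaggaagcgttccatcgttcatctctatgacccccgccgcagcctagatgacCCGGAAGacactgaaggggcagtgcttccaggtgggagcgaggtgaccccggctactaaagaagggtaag
Atp5g1, chr11:96075582-96075881, minus strand: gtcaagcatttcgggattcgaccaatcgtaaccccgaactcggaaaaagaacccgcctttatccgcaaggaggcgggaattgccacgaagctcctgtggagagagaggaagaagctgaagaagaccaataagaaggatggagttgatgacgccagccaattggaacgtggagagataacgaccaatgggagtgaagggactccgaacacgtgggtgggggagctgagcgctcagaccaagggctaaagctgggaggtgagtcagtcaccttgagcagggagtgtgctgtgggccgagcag

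Ets letters were present in 16 of the 69 member promoters (23.2%) and in 9.93% of 27025 promoters in all, but the share was near that of other expressed genes. Among genes that passed the filter, 15 of 66 members (22.7%) and 20.2% of 10236 genes held them. The longer PU.1 form stood in 4.55% of those members and 3.93% of those genes, CCAAT in 45.5% and 43.1%, and CACGTG in 10.6% and 11.7%. NRF1 letters were found in 28.8% of the members and 15.2% of expressed genes, and YY1 letters in 16.7% and 5.27%. Members with and without Ets letters had close values in PU.1 SpiB DKO cells. In naive cells the median log2 fold change was 0.27 for the 15 with the letters and 0.26 for the 50 without, and after CD40L+IL-4 it was 0.37 and 0.32. A match describes letters in this window and is not a binding site.

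Levels can be compared between genes only per length, for which the authors' quantile-normalised log2 RPKM values were used. In naive control cells the median member stood at 6.83 log2 RPKM, above 94.9% of genes in the table. Medians by complex were 6.55 for complex I, 6.77 for complex II, 7.30 for complex III, 7.66 for complex IV and 7.50 for complex V. The highest naive levels were those of Atp5e, the epsilon subunit of the ATP synthase, at 9.48, Cox4i1 at 9.34 and Cox8a at 9.17, both of cytochrome c oxidase, and the catalytic beta subunit Atp5b at 8.96. Low members stood apart within their own complex. In complex II, Sdha, Sdhb and Sdhc lay at 6.93, 6.67 and 6.86 log2 RPKM, while Sdhd, which encodes a membrane anchor of the same 4-subunit enzyme, lay at 0.98. The 3 genes that encode the identical subunit c of the proton-turning ring also differed, with Atp5g3 at 8.48, Atp5g1 at 4.07 and Atp5g2 at 2.82 log2 RPKM. Atp5g1 and Atp5g2 share 11.6% and 14.8% of their 50-base windows with other transcripts and Sdhd shares none, and reads that map to more than 1 place were not counted. Windows were searched in annotated transcripts and not in the rest of the genome. The part of such uncounted reads in these levels was not tested.

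In naive cells, most members were slightly higher in each of the 3 mutants than in control, and few passed the test on their own. The test was edgeR's quasi-likelihood test over all genes of a stage, and a gene passed at a Benjamini-Hochberg adjusted p under 0.15, the level used by the study. In the PU.1 SpiB DKO, 16 of 76 members (21.1%) rose and 1 fell, where 18.2% of all genes tested passed as higher and 16.6% as lower. In this fit, which held no block on the replicate number, the share that rose was close to the background. Of the 76, 73 had a fold change above control against 50.2% of all genes. The median log2 fold change was 0.27 against 0.00 over all genes. No member passed with a fold over 1.5 as well. The 2 PU.1 SpiB DKO libraries lay above both control libraries for 39 members, and this held for 31% of all genes.

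Those that rose in the naive PU.1 SpiB DKO came from every complex: 4 of 35 in complex I, 1 of 4 in complex II, 3 of 7 in complex III, 4 of 13 in complex IV and 4 of 15 in complex V. Cox5a, a nuclear subunit of cytochrome c oxidase that binds the matrix face of the enzyme, stood at 140 and 134 CPM in control, 199 and 174 in the PU.1 cKO, 192 and 147 in the SpiB KO and 220 and 180 in the PU.1 SpiB DKO. All 6 mutant libraries were above both control libraries. The log2 fold change of Cox5a was 0.55 ± 0.15 (SE, adjusted p = 0.0321) in the PU.1 SpiB DKO and 0.45 ± 0.15 (adjusted p = 0.112) in the PU.1 cKO. About 32.0% of the 50-base windows of Cox5a occur in other transcripts. Uqcrq, a small accessory subunit of complex III, stood at 81.8 and 77.0 CPM in control and 127 and 102 in the PU.1 SpiB DKO (log2 fold change 0.53 ± 0.15, adjusted p = 0.0356). Uqcr10, its neighbour in the same complex, stood at 61.1 and 52.3 CPM in control, 78.3 and 69.5 in the PU.1 cKO and 86.4 and 76.5 in the PU.1 SpiB DKO; all 4 of these mutant libraries were above control (0.52 ± 0.14, adjusted p = 0.0315 in the PU.1 SpiB DKO; 0.38 ± 0.14, adjusted p = 0.146 in the PU.1 cKO). Sdhb, the iron-sulfur subunit of complex II, was at 106 and 102 CPM in control and 141 and 123 in the PU.1 SpiB DKO (0.35 ± 0.11, adjusted p = 0.0467). Among the catalytic and core subunits, Ndufs8, Atp5a1 and Uqcrc2 rose by between 0.29 and 0.31 on the log2 scale, with adjusted p of 0.133, 0.143 and 0.111.

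The member that fell was Atp5sl, also known as Dmac2, a factor for assembly of the membrane arm of complex I. It stood at 68.4 and 63.9 CPM in control, 53.0 and 54.3 in the PU.1 cKO, 68.3 and 61.5 in the SpiB KO and 53.8 and 56.9 in the PU.1 SpiB DKO. All libraries of the PU.1 SpiB DKO and of the PU.1 cKO were below the other 4. Its log2 fold change was -0.26 ± 0.11 (adjusted p = 0.145) in the PU.1 SpiB DKO and -0.30 ± 0.11 (adjusted p = 0.15) in the PU.1 cKO, both at the edge of the threshold. Both calls of Atp5sl were lost when any of the 4 libraries compared was left out.

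In the naive PU.1 cKO, 3 members passed (Cox5a and Uqcr10 higher, Atp5sl lower) and in the SpiB KO 0 passed by edgeR, against 17.2% and 12.6% of all genes. At an unadjusted p under 0.05 there were 12 and 1 members, and DESeq2 called 4 and 0. The median log2 fold change was 0.21 in the PU.1 cKO and 0.17 in the SpiB KO, with 74 and 72 of 76 members above control. These comparisons share their control libraries with the PU.1 SpiB DKO comparison. Between mutants, 0 members passed by edgeR or by DESeq2 for the PU.1 SpiB DKO against the PU.1 cKO or against the SpiB KO (2 and 0 at an unadjusted p under 0.05), where 18.1% and 4.2% of all genes did, and median differences were 0.06 and 0.09 on the log2 scale.

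Replicate libraries of naive cells differed by about as much as the mutants did from control, in the same direction in all 4 groups. Over the members, the median log2 ratio to the mean of control was 0.08 and -0.09 in the control libraries, 0.30 and 0.12 in the PU.1 cKO, 0.29 and 0.04 in the SpiB KO and 0.41 and 0.10 in the PU.1 SpiB DKO. Replicate 1 was the higher in all 4 groups, by between 0.17 and 0.31, and among libraries of the same number each mutant was above control. Without naive PU.1 SpiB DKO replicate 1, 0 members passed, without control replicate 2, 3 passed, and without control replicate 1 or PU.1 SpiB DKO replicate 2, 29 passed in each case. Without control replicate 1, 17 members passed in the PU.1 cKO and 8 in the SpiB KO. Other genes with short transcripts moved with the members. The 516 tested genes outside the set with a transcript of 1000 bases or less had a median of 0.21 in the PU.1 SpiB DKO, with 147 higher and 25 lower, and by library their medians were 0.33 and 0.05 where the members had 0.41 and 0.10. The part of transcript length in the result was not tested.

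**Figure D1:**
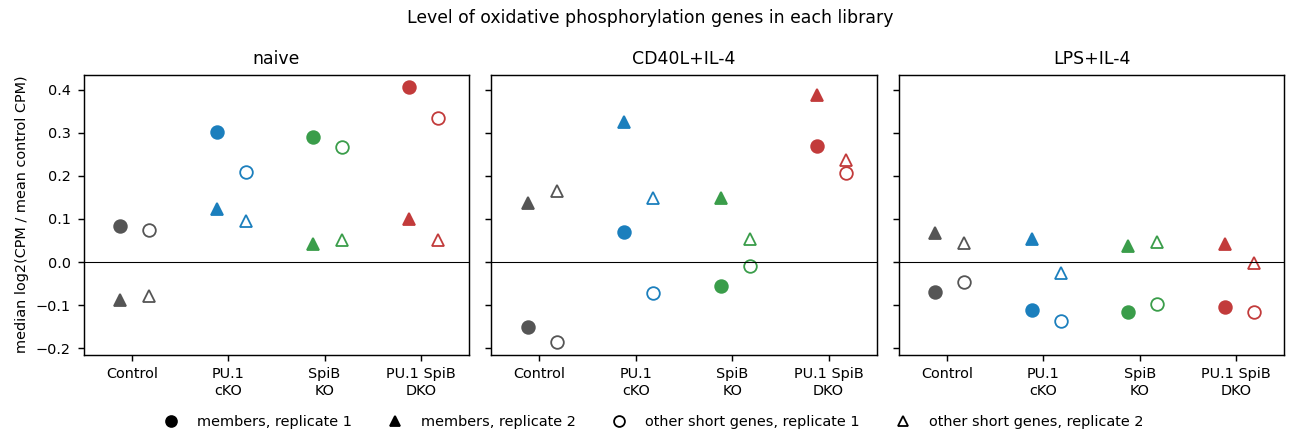
Median over the members of log2(CPM / mean CPM of the control libraries of the same stage) in each of the 24 libraries, on the vertical axis, by genotype; filled symbols are the members, open symbols the other genes with a transcript of 1000 bases or less, circles replicate 1 and triangles replicate 2. Naive PU.1 SpiB DKO libraries sit at 0.41 and 0.10, those after CD40L+IL-4 at 0.27 and 0.39 and those after LPS+IL-4 at -0.10 and 0.04. Open symbols lie at 0.33 and 0.05 in the naive PU.1 SpiB DKO. In the PU.1 cKO after CD40L+IL-4 they lie at -0.07 and 0.15, where the members had 0.07 and 0.32.

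After CD40L+IL-4, the members stood higher in the PU.1 SpiB DKO than in control, and here 19 of 77 (24.7%) rose and 1 fell, where 12.5% of all genes passed as higher and 12.7% as lower. With a fold over 1.5 as well, 7 of 77 members rose (Atp5g1, Uqcrq, Ndufa4, Ndufb11, Ndufc1, Ndufb2 and Cox7b), a share close to the 9.13% of all genes. The median log2 fold change was 0.33 (0.00 over all genes), and 73 of 77 members were above control against 50.1% of all genes. The PU.1 SpiB DKO libraries lay above both control libraries for 54 of 77 members, which held for 29% of all genes. Complex I supplied 9 of the 19 from its 35 genes, complex II none of 4, complex III 2 of 7, complex IV 4 of 14 and complex V 4 of 15. In complex I, 8 of the 9 were accessory subunits, of 28 tested, and 1 was among the 7 core subunits.

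Atp5g1 had the largest change. It lies on chromosome 11 (chr11:96072793-96075694, GRCm38.p6) and encodes subunit c. It stood at 11.3 and 14.8 CPM in control, 18.2 and 22.5 in the PU.1 cKO, 10.9 and 16.6 in the SpiB KO and 22.6 and 30.5 in the PU.1 SpiB DKO. Both PU.1 SpiB DKO libraries were above all libraries of the other 3 groups, and both PU.1 cKO libraries were above control and SpiB KO. The log2 fold change of Atp5g1 was 1.03 ± 0.25 (adjusted p = 0.0222) in the PU.1 SpiB DKO and 0.66 ± 0.25 (adjusted p = 0.144) in the PU.1 cKO, and the PU.1 SpiB DKO exceeded the SpiB KO by 0.94 ± 0.25 (adjusted p = 0.038). Atp5g3, the highest in CPM of the subunit c genes, stood at 383 and 423 CPM in control and 536 and 622 in the PU.1 SpiB DKO (0.52 ± 0.18, adjusted p = 0.0878). Atp5g2, at 2.55 and 3.04 against 3.24 and 2.67 CPM, did not pass.

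Ndufa4, now counted as a subunit of cytochrome c oxidase, stood at 204 and 260 CPM in control, 258 and 300 in the PU.1 cKO, 197 and 258 in the SpiB KO and 365 and 399 in the PU.1 SpiB DKO. Its PU.1 SpiB DKO libraries were above all others (log2 fold change 0.72 ± 0.18, adjusted p = 0.0266 against control and 0.75 ± 0.18, adjusted p = 0.0274 against the SpiB KO). Uqcrq stood at 76.5 and 95.2 CPM in control, 101 and 131 in the PU.1 cKO, 75.2 and 103 in the SpiB KO and 144 and 139 in the PU.1 SpiB DKO (0.72 ± 0.20, adjusted p = 0.036). Ndufb11, an X-linked accessory subunit in the membrane arm of complex I, stood at 164 and 200 CPM in control, 238 and 282 in the PU.1 cKO, 202 and 204 in the SpiB KO and 285 and 275 in the PU.1 SpiB DKO. Control and SpiB KO lay low, and both groups with the Spi1 deletion lay high. Its log2 fold change was 0.62 ± 0.16 (adjusted p = 0.0267) in the PU.1 SpiB DKO and 0.51 ± 0.16 (adjusted p = 0.0741) in the PU.1 cKO. About 17.5% of the windows of Ndufb11 occur in other transcripts, among them those of its neighbour Rbm10.

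Cytochrome c oxidase members Cox5a (226 and 261 CPM in control, 323 and 380 in the PU.1 SpiB DKO) and Cox6a1 (217 and 261 against 321 and 340 CPM) also rose, by 0.53 ± 0.16 (adjusted p = 0.0545) and 0.47 ± 0.18 (adjusted p = 0.106) on the log2 scale. The 2 genes with Ets letters shown above besides Cox6a1 were Ndufb7, at 82.8 and 98.1 CPM in control and 128 and 142 in the PU.1 SpiB DKO (0.58 ± 0.19, adjusted p = 0.0655), and Atp5j, at 170 and 210 against 252 and 262 CPM (0.44 ± 0.18, adjusted p = 0.144). They were named after their values were seen. Atp5sl again fell: it stood at 39.5 and 37.5 CPM in control, 29.8 and 34.6 in the PU.1 cKO, 44.3 and 39.8 in the SpiB KO and 25.3 and 26.7 in the PU.1 SpiB DKO. Both groups with the Spi1 deletion were below the other groups, and the PU.1 SpiB DKO was lowest, with a log2 fold change of -0.57 ± 0.16 (adjusted p = 0.0393) against control and -0.69 ± 0.16 (adjusted p = 0.0195) against the SpiB KO.

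The other contrasts of this culture gave fewer calls. In the PU.1 cKO, 2 members rose (Atp5g1 and Ndufb11) and none fell, where 16.6% of all genes passed, with a median log2 fold change of 0.21 and 69 of 77 members above control. In the SpiB KO, 0 passed by edgeR and by DESeq2, with 0 at an unadjusted p under 0.05, a median of 0.04 and 52 of 77 above control, where 0.134% of all genes passed. The PU.1 SpiB DKO exceeded the SpiB KO with 14 members higher and 1 lower, against 10.7% of all genes higher and 9.76% lower, and a median of 0.30. Against the PU.1 cKO, 0 members passed by edgeR (4 at an unadjusted p under 0.05, and 0 by DESeq2), where 4.23% of all genes did, and the median was 0.14 with 62 of 77 above.

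As in naive cells, the number of calls changed with the library left out. In a fit blocked on the replicate number, 41 members rose and 1 fell in the PU.1 SpiB DKO, against 17.7% and 18.4% of all genes. The fits with a library left out held no such block, so a shift shared by same-numbered libraries stays in their counts. Without control replicate 1, the lower of the control libraries, 0 members passed in the PU.1 SpiB DKO comparison, while without control replicate 2, 31 passed, and without PU.1 SpiB DKO replicate 2, 5 passed. The comparison with the SpiB KO gave 1 without PU.1 SpiB DKO replicate 2 or SpiB KO replicate 1, and 8 without PU.1 SpiB DKO replicate 1. The median of the members was 0.22 to 0.48 over these sets and stayed above 0. By library it was -0.15 and 0.14 in control, 0.07 and 0.32 in the PU.1 cKO, -0.06 and 0.15 in the SpiB KO and 0.27 and 0.39 in the PU.1 SpiB DKO, and both PU.1 SpiB DKO libraries lay above both of control. Replicate 2 was the higher in every group, by between 0.12 and 0.29, and among libraries of the same number each mutant was above control. The other short genes had medians of -0.19 and 0.16 in control and 0.21 and 0.24 in the PU.1 SpiB DKO, and over the comparison 97 of 541 were higher and 30 lower, with a median of 0.24 where the members had 0.33. In the PU.1 cKO against control their median was 0.06 where the members had 0.21. PU.1 SpiB DKO replicate 1 held 6.64% of its reads in ribosomal RNA (Rn45s), the most of all libraries, and its part in the result was not tested.

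**Figure D2:**
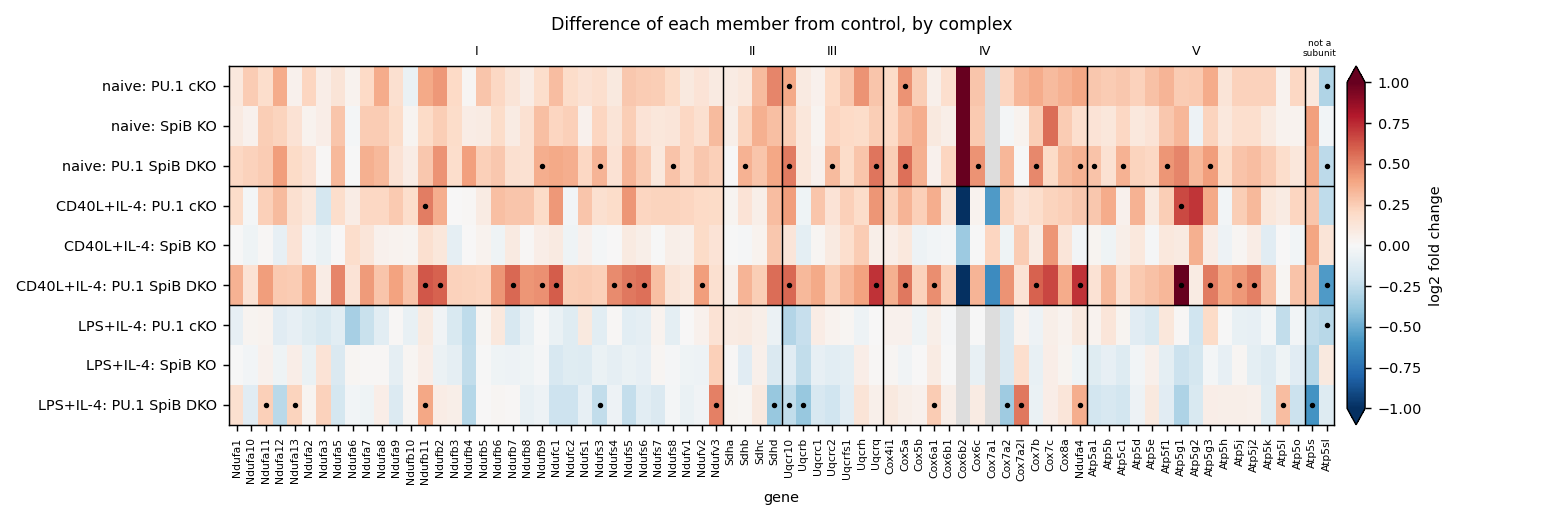
Log2 fold change from control (colour, limited to 1 in either direction) of the members tested, except 1 that is not reported here, in columns by complex, for the 3 mutants at the 3 stages, in rows; a black dot marks an adjusted p under 0.15 and grey a gene not tested. The naive and CD40L+IL-4 rows are mostly above 0 while the LPS+IL-4 rows are mixed, with 19 members higher in the PU.1 SpiB DKO after CD40L+IL-4 and 8 after LPS+IL-4.

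After LPS+IL-4, members moved in both directions in the PU.1 SpiB DKO with a median near 0. There, 8 of 75 rose and 6 fell, where 25.6% of all genes passed as higher and 22.4% as lower, and the median log2 fold change was -0.04 (0.01 over all genes), with 35 of 75 above control. PU.1 SpiB DKO libraries lay above both of control for 15 members and below for 16, against 33.6% and 31.8% of all genes. Both shares of calls were below those of all genes. Replicate numbers paired the libraries of this culture, and in a fit blocked on that number 11 members rose and 19 fell, against 30.2% and 27.8% of all genes.

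The rises were led by Cox7a2l, whose product joins complex III to complex IV and which in C57BL/6 mice is made in a shortened form. It stood at 122 and 111 CPM in control, 125 and 113 in the PU.1 cKO, 124 and 138 in the SpiB KO and 166 and 171 in the PU.1 SpiB DKO. The PU.1 SpiB DKO stood clear of all other libraries. Its log2 fold change was 0.53 ± 0.09 (adjusted p = 0.00229) against control, 0.50 ± 0.09 (adjusted p = 0.00753) against the PU.1 cKO and 0.36 ± 0.09 (adjusted p = 0.0249) against the SpiB KO. Ndufv3, a flavoprotein-arm accessory subunit of complex I, stood at 27.8 and 26.9 CPM in control, 29.8 and 30.8 in the PU.1 cKO, 29.7 and 35.1 in the SpiB KO and 40.5 and 37.3 in the PU.1 SpiB DKO (0.51 ± 0.11, adjusted p = 0.00626). Again the PU.1 SpiB DKO was highest. Ndufb11 (110 and 120 CPM in control, 145 and 157 in the PU.1 SpiB DKO) rose by 0.39 ± 0.11 (adjusted p = 0.0208), and Ndufa4 (167 and 181 against 220 and 228 CPM) by 0.36 ± 0.10 (adjusted p = 0.0171) on the log2 scale. The calls of Cox7a2l, Ndufv3, Ndufb11 and Ndufa4 against control held whichever of the 4 libraries was left out and under every other setting tried, while over all members 8 passed without control replicate 2, 9 without PU.1 SpiB DKO replicate 1 and 20 without control replicate 1.

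The falls were smaller in number of reads. Atp5s, also called Dmac2l or factor B, was at 6.66 and 4.88 CPM in control and 4.26 and 3.25 in the PU.1 SpiB DKO (-0.60 ± 0.21, adjusted p = 0.0577) and was the only member past a fold of 1.5. Sdhd, the small membrane anchor of complex II, was at 9.73 and 12.7 CPM in control, 11.2 and 10.5 in the PU.1 cKO, 9.02 and 11.6 in the SpiB KO and 7.97 and 9.42 in the PU.1 SpiB DKO (-0.38 ± 0.18, adjusted p = 0.137). Uqcrb, a ubiquinone-binding subunit of complex III of which 43.4% of windows are shared, was at 44.2 and 47.2 CPM in control and 35.6 and 34.7 in the PU.1 SpiB DKO (-0.38 ± 0.12, adjusted p = 0.0369). Cox7a2 fell by 0.35 ± 0.13 (adjusted p = 0.0648) on the log2 scale. The call of Uqcrb was lost without control replicate 2, those of Sdhd and Cox7a2 also without PU.1 SpiB DKO replicate 1, that of Cox7a2 without PU.1 SpiB DKO replicate 2 too, and that of Atp5s without control replicate 1 or PU.1 SpiB DKO replicate 2. Atp5g1, highest of all after CD40L+IL-4 in the PU.1 SpiB DKO comparison, stood at 30.7 and 38.2 CPM in control and 25.1 and 30.9 in the PU.1 SpiB DKO here, with a log2 fold change of -0.31 that did not pass (adjusted p = 0.163).

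The other LPS+IL-4 contrasts gave few calls. In the PU.1 cKO 1 member fell (Atp5sl, 28.7 and 26.0 CPM in control, 23.7 and 21.3 in the PU.1 cKO, -0.28 ± 0.10, adjusted p = 0.126), and its call was lost without control replicate 1 or without either PU.1 cKO library. In the SpiB KO 0 passed by edgeR and by DESeq2, with 0 at an unadjusted p under 0.05, where 19% and 5.13% of all genes passed in the PU.1 cKO and the SpiB KO. Medians were -0.03 and -0.04. With the replicate block, 1 member rose and 5 fell in the PU.1 cKO, against 16.5% and 13.3% of all genes. The PU.1 SpiB DKO exceeded the PU.1 cKO in 7 members and was below it in 4, where 19.5% of all genes were higher and 16.8% lower; 19 rose and 14 fell with the block, against 26.4% and 23.6% of all genes, and 4 passed in all without PU.1 SpiB DKO replicate 1. Falls in that contrast were of Atp5b (-0.28 ± 0.12, adjusted p = 0.125), Uqcrc1 (-0.24 ± 0.10, adjusted p = 0.119), Uqcrc2 (-0.23 ± 0.10, adjusted p = 0.135) and Atp5c1 (-0.21 ± 0.09, adjusted p = 0.141), core parts of complexes V and III. The largest rise, that of Atp5l (0.56 ± 0.15, adjusted p = 0.0273), concerns a gene of which 84.8% of windows are shared with other transcripts, and it was lost without PU.1 SpiB DKO replicate 2. Against the SpiB KO 5 members rose and none fell, where 30% of all genes passed; with the block 11 rose and 5 fell, against 22.4% and 20.6% of all genes, and 1 passed without SpiB KO replicate 1 and 2 without PU.1 SpiB DKO replicate 2.

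Whether the PU.1 SpiB DKO effect differed between stages was tested as an interaction in 1 fit of all 24 libraries. Between LPS+IL-4 and CD40L+IL-4, the effect was lower after LPS+IL-4 for 31 of 77 members (40.3%) and higher for 0, where 15% of all genes passed as lower and 13.6% as higher. With a difference over 1.5-fold as well, 19 members were lower, against 11.5% of all genes. The median difference was -0.44 on the log2 scale (0.00 over all genes). Lower effects were found in 15 of 35 members of complex I, 2 of 4 of complex II, 5 of 7 of complex III, 3 of 14 of complex IV and 5 of 15 of complex V, with Atp5s besides. The difference was -1.42 ± 0.34 (SE, adjusted p = 0.00925) for Atp5g1, -1.02 ± 0.45 (adjusted p = 0.134) for Sdhd, -0.99 ± 0.33 (adjusted p = 0.048) for Atp5s and -0.62 ± 0.20 (adjusted p = 0.0386) for Uqcrc1, a core protein of complex III. Against naive cells, the effect after LPS+IL-4 was lower for 19 members and higher for 0, where 16% of all genes passed as lower and 13.5% as higher, with a median of -0.35 (-0.05 over all genes), and the named members were Atp5s (-1.05 ± 0.32, adjusted p = 0.0318), Atp5g1 (-0.86 ± 0.33, adjusted p = 0.0829) and Uqcr10 (-0.83 ± 0.24, adjusted p = 0.0243). Between CD40L+IL-4 and naive cells 0 members differed by edgeR and by DESeq2, with 0 at an unadjusted p under 0.05, against 16.8% of all genes, with a median of 0.11.

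The number of members with a stage difference changed with the library left out, in fits without a term for the replicate number. Between LPS+IL-4 and CD40L+IL-4, 6 members passed without LPS+IL-4 control replicate 2, 7 without LPS+IL-4 PU.1 SpiB DKO replicate 1, 8 without CD40L+IL-4 PU.1 SpiB DKO replicate 2 and 11 without CD40L+IL-4 control replicate 1, and the call of Atp5g1 held in each of these. That of Sdhd did not, with a difference of -0.46 to -1.50 over the libraries left out, and was lost without CD40L+IL-4 control replicate 2, CD40L+IL-4 PU.1 SpiB DKO replicate 2, LPS+IL-4 control replicate 2 or either LPS+IL-4 PU.1 SpiB DKO library, and with voom. The call of Uqcrc1 was lost without CD40L+IL-4 PU.1 SpiB DKO replicate 2, LPS+IL-4 control replicate 2 or LPS+IL-4 PU.1 SpiB DKO replicate 1, and that of Atp5s without LPS+IL-4 PU.1 SpiB DKO replicate 2. Between LPS+IL-4 and naive cells, 3 to 5 passed without LPS+IL-4 control replicate 2, LPS+IL-4 PU.1 SpiB DKO replicate 1, naive control replicate 2 or naive PU.1 SpiB DKO replicate 1, and 30 without naive control replicate 1. The call of Atp5g1 was lost in each of the first 4 cases, and those of Atp5s and Uqcr10 were kept. With the replicate number as a block within each stage, 1 member was higher and 54 lower between the cultures (19.3% and 20.4% of all genes), and 1 higher and 46 lower between LPS+IL-4 and naive cells (19.1% and 21.9% of all genes). Other short genes differed the same way, 30 of 583 higher and 126 lower between the cultures with a median of -0.30. Each stage was a set of libraries of its own, and stage cannot be told apart from any difference in how those sets were prepared. The PU.1 SpiB DKO comparisons in naive cells and after CD40L+IL-4, each with its own controls, had 7 rises in common (43.8% of the naive and 36.8% of the CD40L+IL-4 rises): Atp5g3, Cox5a, Cox7b, Ndufa4, Ndufb9, Uqcr10 and Uqcrq, named for this overlap after their values were seen. CD40L+IL-4 and LPS+IL-4 shared Cox6a1, Ndufa4 and Ndufb11 (15.8% and 37.5%), and Ndufa4 rose at all 3 stages. The overlap of rises among all genes is not given here, so the shared rises are not read as particular to the members.

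**Figure D3:**
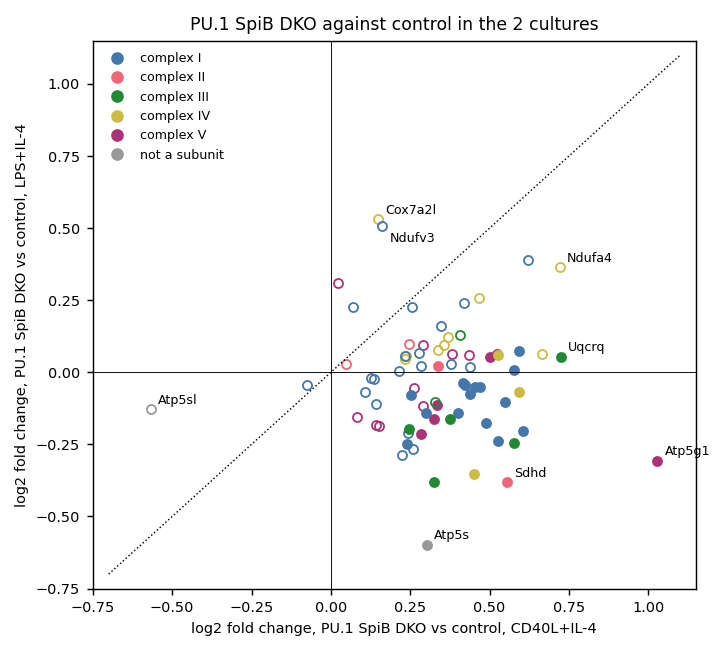
Log2 fold change of each member in PU.1 SpiB DKO against control after CD40L+IL-4 (horizontal axis) and after LPS+IL-4 (vertical axis), coloured by complex; filled points passed the test of the difference between the cultures and the dotted line marks equal change. Filled points lie below the line, with Atp5g1 at 1.03 and -0.31, while Cox7a2l and Ndufv3 lie above it.

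**Figure D4:**
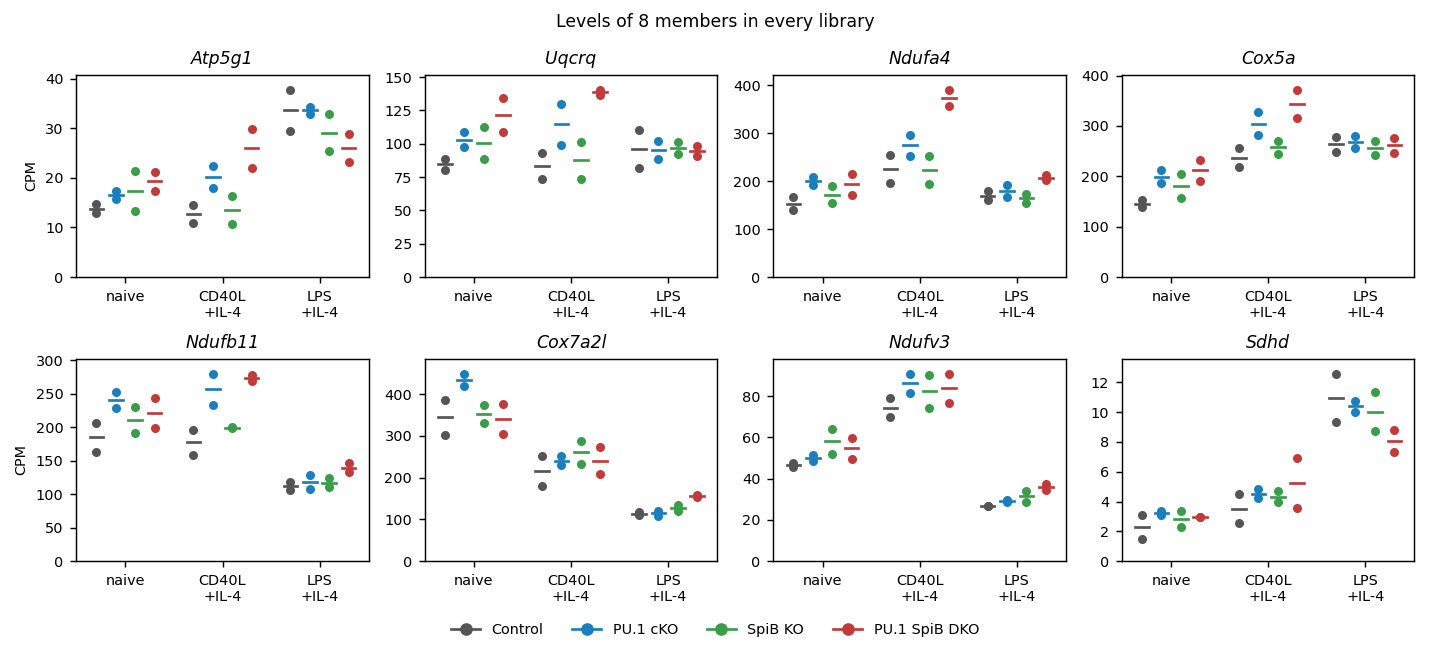
CPM (vertical axes, from 0, scaled over all 24 libraries, so values differ a little from those scaled within a stage) of 8 members in every library, by stage and genotype; points are libraries and bars the mean of 2. Within CD40L+IL-4, Atp5g1, Uqcrq and Ndufa4 are highest in the PU.1 SpiB DKO. Between stages, Cox7a2l is highest in naive cells, Ndufv3 after CD40L+IL-4 and Sdhd after LPS+IL-4.

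Between stages of control cells the members changed more than between genotypes, in both directions. CPM in these comparisons were scaled over all 24 libraries, and of 77 members 23 rose and 10 fell from naive to CD40L+IL-4, 29 rose and 21 fell from naive to LPS+IL-4, and 19 were higher and 28 lower after LPS+IL-4 than after CD40L+IL-4. Of all 13684 genes, 32.7% rose and 32% fell, 39% rose and 37.9% fell, and 29.8% were higher and 29.6% lower in the same order, and the shares of the members were 29.9% and 13.0%, 37.7% and 27.3%, and 24.7% and 36.4%. Without Cox6b2 and Cox7a1, 26 of 75 were lower between the cultures. The 3 comparisons share libraries with each other. The median log2 fold changes were 0.14, 0.14 and -0.07.

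Counts by complex are given side by side, and differences between complexes were not tested. From naive to LPS+IL-4, 9 members of complex V rose and 3 fell (median 0.43), 4 of complex III rose and 1 fell (0.28), 9 of complex I rose and 10 fell (0.08), and 4 of complex IV rose and 5 fell (-0.27). Between the cultures, 7 of 12 members of cytochrome c oxidase were lower after LPS+IL-4 and 1 higher (median -0.38), and 4 of 7 of complex III were higher and 1 lower (0.39). Cox6b2 and Cox7a1 are left out of that count, since they did not reach the filter on low values in the LPS+IL-4 libraries. Within complex I, 3 of 7 core subunits were higher and 1 lower after LPS+IL-4 than after CD40L+IL-4, but 2 of 28 accessory subunits were higher and 12 lower. Longer members tended to be the higher after LPS+IL-4: across the 77 genes, which share their libraries and are not independent replicates, Spearman's rho of the log2 fold change with transcript length was 0.48 against CD40L+IL-4, 0.41 against naive cells and 0.01 for CD40L+IL-4 against naive cells. Over all short genes outside the set the medians were -0.12, -0.15 and -0.05 in the same order, and the part of length was not tested.

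Among complex I genes, Ndufa8 stood at 7.85 and 7.81 CPM in naive control cells, 20.2 and 22.1 after CD40L+IL-4 and 15.9 and 15.9 after LPS+IL-4. Ndufa12 stood at 8.68 and 8.48, 22.4 and 21.2, and 21.6 and 28.6 CPM, and Ndufa10 at 56.4 and 57.0, 115 and 131, and 150 and 167 CPM in the same order. These 3 accessory subunits were low in naive cells and higher in both cultures without overlap, with log2 fold changes from naive of 1.44, 1.35 and 1.12 after CD40L+IL-4 and 1.02, 1.55 and 1.48 after LPS+IL-4. Ndufs1, the largest iron-sulfur subunit of complex I, was at 72.8 and 59.6 CPM in naive cells, 98.2 and 79.9 after CD40L+IL-4 and 140 and 151 after LPS+IL-4, and was highest in that culture (1.14 ± 0.13 from naive, adjusted p = 2e-07). Other accessory subunits fell. Ndufa3 stood at 97.9 and 83.9 CPM in naive cells, 65.7 and 92.5 after CD40L+IL-4 and 25.3 and 27.2 after LPS+IL-4, and Ndufa6 at 66.9 and 59.5, 26.9 and 37.4, and 21.3 and 21.3 CPM. From naive to LPS+IL-4 the log2 fold change was -1.79 ± 0.17 (adjusted p = 1.75e-08) for Ndufa3 and -1.57 ± 0.18 (adjusted p = 3.08e-07) for Ndufa6.

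In complex II, Sdhd stood at 3.12 and 1.49 CPM in naive cells, 4.49 and 2.56 after CD40L+IL-4 and 9.33 and 12.6 after LPS+IL-4. The LPS+IL-4 libraries were the only ones clear of the rest, with a log2 fold change of 2.26 ± 0.33 (adjusted p = 6.31e-06) from naive, the largest rise of any member. Sdha, the flavoprotein that oxidises succinate, stood at 387 and 342, 343 and 343, and 323 and 369 CPM and passed in none of the 3 comparisons. In complex IV, Cox7a2l fell from 386 and 303 CPM in naive cells to 180 and 253 after CD40L+IL-4 and 117 and 110 after LPS+IL-4 (-1.60 ± 0.17, adjusted p = 1.01e-07 from naive to LPS+IL-4), in separate steps. Cox5b stood at 51.8 and 39.3, 66.3 and 77.2, and 39.5 and 39.6 CPM and was highest after CD40L+IL-4. The tissue-restricted isoforms Cox6b2 and Cox7a1 were at under 1 CPM in every control library of the cultures, and passed the filter only through libraries of other stages than LPS+IL-4, so their lower values there are not read as a change.

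Complex V showed a change among the genes of subunit c. Atp5g1 stood at 14.8 and 12.9 CPM in naive cells, 10.9 and 14.5 after CD40L+IL-4 and 29.5 and 37.8 after LPS+IL-4, and Atp5g2 at 4.65 and 3.57, 2.46 and 2.97, and 10.6 and 10.3 CPM. Both were highest after LPS+IL-4, and their log2 differences from CD40L+IL-4 were 1.41 ± 0.24 (adjusted p = 0.000103) and 1.95 ± 0.31 (adjusted p = 3.81e-05). Atp5g3 rose in both cultures, from 292 and 223 CPM to 370 and 414 after CD40L+IL-4 and 393 and 499 after LPS+IL-4, and differed by 0.19 between them, which did not pass. Per length, Atp5g3 stayed the highest of the 3 at 9.38 log2 RPKM after LPS+IL-4, with Atp5g1 at 5.32 and Atp5g2 at 4.13. Atp5k, the small e subunit of the membrane part, stood at 60.5 and 52.7, 74.5 and 109, and 27.1 and 31.1 CPM, and was lowest after LPS+IL-4 (-1.65 ± 0.27, adjusted p = 6.21e-05 against CD40L+IL-4). Atp5sl fell from naive to both cultures, by 0.92 ± 0.12 and 1.41 ± 0.12 on the log2 scale (adjusted p = 2.46e-06 and 2.8e-09).

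**Figure D5:**
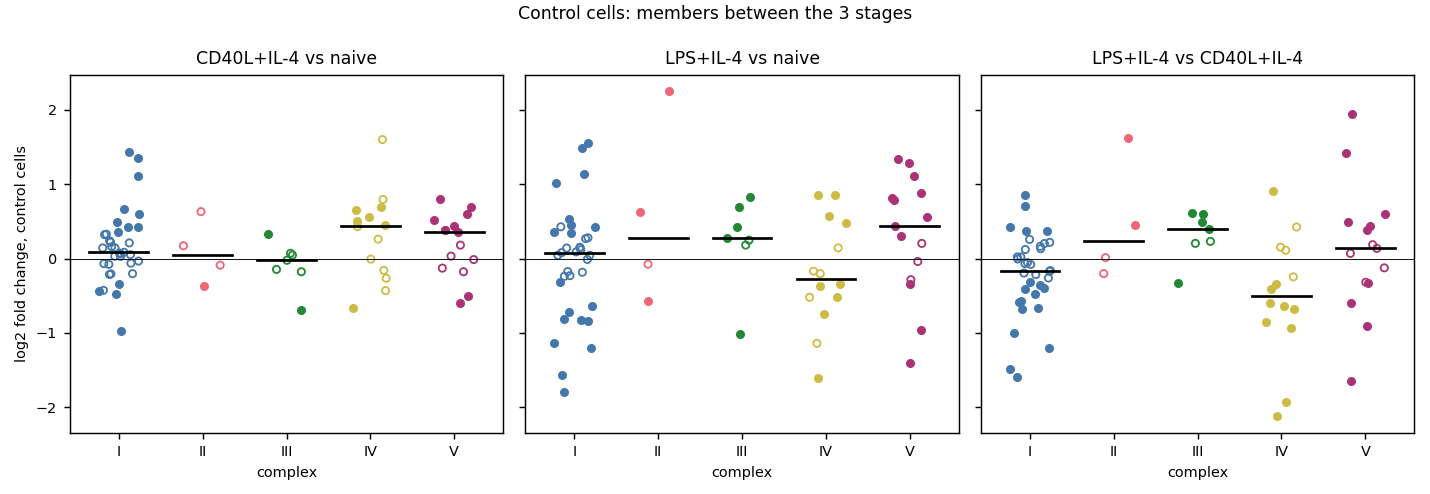
Log2 fold change of each member between stages of control cells (vertical axis) by complex (horizontal axis); filled points passed at an adjusted p under 0.15 and bars are medians. Between LPS+IL-4 and CD40L+IL-4 the medians are -0.16 for complex I, 0.24 for II, 0.39 for III, -0.50 for IV (-0.38 without Cox6b2 and Cox7a1) and 0.14 for V.

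Genes of the same pathway outside the set were counted in the same PU.1 SpiB DKO comparisons, where 18.2% of all genes rose and 16.6% fell in naive cells, 12.5% and 12.7% after CD40L+IL-4, and 25.6% and 22.4% after LPS+IL-4. With lists this short, many of the counts lie near those shares. Of 41 assembly factors of the complexes, 10 rose and 0 fell in naive PU.1 SpiB DKO cells (median 0.17, with Ndufaf7 at 0.62), 6 rose and 1 fell after CD40L+IL-4 (0.18, with Sco1, a copper chaperone of complex IV, at 0.92), and 3 rose and 16 fell after LPS+IL-4 (-0.09, with Acad9 at -0.89). Of 14 enzymes of the citric acid cycle, 3 rose and 1 fell in naive cells, where Idh2 rose by 1.18 on the log2 scale, 2 rose after CD40L+IL-4 and 5 fell after LPS+IL-4. Of 7 electron carriers and subunits whose names fall outside the rule (6 tested after LPS+IL-4), 2, 3 and 0 rose and 0, 0 and 3 fell. Among them Ndufab1, the mitochondrial acyl carrier protein and a subunit of complex I, rose by 0.95 after CD40L+IL-4 (adjusted p = 0.021) and fell by 0.57 after LPS+IL-4 (adjusted p = 0.011), and the electron carrier cytochrome c (Cycs) fell by 0.70 after LPS+IL-4 (adjusted p = 0.0269), all on the log2 scale. Of 6 carriers that move ADP and phosphate, 3 rose in naive cells, none changed after CD40L+IL-4 and 1 fell after LPS+IL-4. Of 18 regulators of mitochondrial biogenesis, 2 rose and 5 fell in naive cells, 2 rose after CD40L+IL-4, among them Myc by 0.77 (adjusted p = 0.0385), and 1 rose and 10 fell after LPS+IL-4.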

How the data were processed

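Total RNA of sorted or cultured B cells was sequenced in 24 libraries of 12 groups, placed by the sample titles. Per the labels and the study's methods, the authors aligned reads to GRCm38 with Subread, counted uniquely mapped reads over RefSeq exons with featureCounts and deposited raw counts per gene, with no normalization. The deposited log2 RPKM values were quantile normalised by the authors, naive and CD40L+IL-4 libraries together and LPS+IL-4 libraries apart, and were used only to compare levels between genes within a stage. Here the counts were tested with edgeR 4.0.16 (quasi-likelihood, TMM scaling, R 4.3.3), with genes kept at 0.5 CPM in at least 2 libraries, in 1 fit of 8 libraries per stage, and in 1 fit of all 24 libraries for control stages and stage differences. A gene passed at a Benjamini-Hochberg adjusted p under 0.15 over all genes tested, and SE is that of the fitted log2 fold change. With 2 libraries against 2, an exact permutation test cannot go below p = 0.333.

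Named members were a list of catalytic, core and isoform genes and, in each comparison, the 3 largest rises and falls that passed without overlap of the groups. The members and all lists were chosen with earlier results of these data known. Same-numbered libraries deviated together after LPS+IL-4 (correlations of 0.39 to 0.51 between genotypes), which was taken as pairing. Pairing was taken only where every correlation was over 0.1, which was missed narrowly in naive cells, where all were positive (0.09 to 0.25), and after CD40L+IL-4 (-0.07 to 0.27). Rows with no gene symbol held 0.162% of counts. The window check counted 50-base stretches of GENCODE transcripts found in other genes, by letters alone. Alternatives were DESeq2 1.42.0, RLE scaling, voom with limma 3.58.1, no filter on low counts, a replicate block, an adjusted p under 0.05, only the 6 control libraries, each library left out, fewer members and, added after the data were seen, members that share few windows and control stages without Cox6b2 and Cox7a1. Some genes are not reported here by name but stay in the counts. The fits were tested on simulated counts with 200 changed genes.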

Additional observations from a re-analysis of the deposited data

Results flagged for a closer look

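The PU.1 SpiB DKO effect differed between stages in tests of the difference itself. Between LPS+IL-4 and CD40L+IL-4 31 members had a lower effect after LPS+IL-4, where 15% of all genes did, and the difference on the log2 scale was -1.42 for Atp5g1, -1.02 for Sdhd and -0.99 for Atp5s. The value of Sdhd ranged from -1.50 to -0.46 as single libraries were left out, and its call was lost without any of 5 of the 8. Between LPS+IL-4 and naive cells 19 members had a lower effect after LPS+IL-4, where 16% of all genes did, with -1.05 for Atp5s, -0.86 for Atp5g1 and -0.83 for Uqcr10. The effects are against different control libraries, so no library enters both arms of a difference.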

How the results depend on the processing

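No named member that passed changed direction under any setting, and 2 libraries in each group limit every call. Counts of members that passed, in fits with no term for the replicate number, changed with the library left out. Left out 1 at a time, they ranged from 0 to 29 for the naive PU.1 SpiB DKO, 0 to 17 for the naive PU.1 cKO, 0 to 8 for the naive SpiB KO, 0 to 1 for the naive PU.1 SpiB DKO against the PU.1 cKO, 0 to 31 for the PU.1 SpiB DKO after CD40L+IL-4 (1 to 18 against the SpiB KO), 0 to 2 for the PU.1 cKO there, and after LPS+IL-4 8 to 20 for the PU.1 SpiB DKO, 4 to 9 against the PU.1 cKO, 1 to 5 against the SpiB KO and 1 to 2 for the PU.1 cKO. For the difference of the PU.1 SpiB DKO effect they ranged from 6 to 44 between the cultures, 3 to 30 between LPS+IL-4 and naive cells and 0 to 2 between CD40L+IL-4 and naive cells. In control cells they were 26 to 35, 44 to 51 and 35 to 44 for CD40L+IL-4 against naive, LPS+IL-4 against naive and between the cultures.

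With the replicate number as a block, 34, 22 and 47 of 76 members passed in the naive PU.1 cKO, SpiB KO and PU.1 SpiB DKO. Of these, 33, 22 and 46 were higher, where 14.6%, 13.1% and 24.1% of all genes were. In either direction, 32.1%, 26.9% and 48.1% of all genes passed. The PU.1 SpiB DKO had 4 against each of the PU.1 cKO and the SpiB KO (29.2% and 12.0%). After CD40L+IL-4 there were 11 in the PU.1 cKO and 42 in the PU.1 SpiB DKO (25.9% and 36.1%). Against the PU.1 cKO there were 4 and against the SpiB KO 37 (9.66% and 32.0%). Of 77 members, 11 and 41 were higher against control and 36 against the SpiB KO. Of all genes, 12.2%, 17.7% and 16.4% were higher in the same order. After LPS+IL-4, counted in either direction, 6 members passed in the PU.1 cKO and 30 in the PU.1 SpiB DKO (29.8% and 58.0% of all genes). The PU.1 SpiB DKO had 33 against the PU.1 cKO and 16 against the SpiB KO (50.1% and 43.0%). There were 51 between CD40L+IL-4 and naive control cells (69.5%), and 55, 10 and 47 for the stage differences of the PU.1 SpiB DKO effect (between the cultures, CD40L+IL-4 against naive, LPS+IL-4 against naive; 39.7%, 24.8% and 41.0%). The paired fit removed no call of a named member. Naive and CD40L+IL-4 libraries share a number with no stated pairing.

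At an adjusted p under 0.05, 0 members passed in the naive PU.1 cKO, 5 in the naive PU.1 SpiB DKO, 5 and 0 in the PU.1 SpiB DKO and the PU.1 cKO after CD40L+IL-4 and 3 against the SpiB KO, 5 and 0 in the same mutants after LPS+IL-4, 4 against the PU.1 cKO and 2 against the SpiB KO, and 7 and 3 for the differences of LPS+IL-4 from CD40L+IL-4 and from naive cells. With voom, 7, 1 and 32 passed in the naive PU.1 cKO, SpiB KO and PU.1 SpiB DKO, 2 against the PU.1 cKO, and 1 for the difference of CD40L+IL-4 from naive cells. Without the filter on low counts, 11 passed in the naive PU.1 cKO, 1 in the naive SpiB KO and 1 between the naive PU.1 SpiB DKO and the PU.1 cKO, 5 in the PU.1 cKO after CD40L+IL-4, and after LPS+IL-4 2 in the PU.1 cKO, 18 against the PU.1 cKO and 3 against the SpiB KO. DESeq2 gave 11 in the naive PU.1 SpiB DKO and 3 against the SpiB KO after LPS+IL-4. RLE scaling, the 6 control libraries alone and leaving out Cox6b2 and Cox7a1 changed no count by over 1.5 times. The cause of these changes was not tested.

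The median log2 fold change of the members moved by less than the spread between replicates under every setting other than leaving out a library. Left out 1 at a time, the median ranged from 0.10 to 0.39 in the naive PU.1 SpiB DKO, 0.22 to 0.48 after CD40L+IL-4 and -0.12 to 0.04 after LPS+IL-4, and its difference from -0.60 to -0.30 between the cultures and -0.49 to -0.22 between LPS+IL-4 and naive cells. It crossed 0 in every comparison after LPS+IL-4 (-0.12 to 0.06 in the PU.1 cKO, -0.12 to 0.05 in the SpiB KO, -0.08 to 0.09 and -0.09 to 0.08 for the PU.1 SpiB DKO against them), for the PU.1 SpiB DKO against the PU.1 cKO in naive cells (-0.11 to 0.20) and after CD40L+IL-4 (-0.01 to 0.29), against the naive SpiB KO (-0.08 to 0.24), in the SpiB KO after CD40L+IL-4 (-0.09 to 0.19), between the cultures in control cells (-0.21 to 0.08) and in the difference of CD40L+IL-4 from naive cells (-0.09 to 0.31).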

Other observations

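The 13 subunits encoded in mitochondrial DNA moved apart from the nuclear members between the stages of control cells. From naive to CD40L+IL-4, 13 fell and 0 rose (median log2 fold change -1.27), and from naive to LPS+IL-4 12 fell and 0 rose (median -2.40), where the nuclear members had medians of 0.14 in both. Of all genes, 32.0% fell and 32.7% rose in the first comparison, and 37.9% fell and 39.0% rose in the second. The share of the 13 subunits in all counts was 6.55% to 9.88% in naive libraries, 2.48% to 4.74% after CD40L+IL-4 and 1.62% to 2.65% after LPS+IL-4. In the PU.1 SpiB DKO after LPS+IL-4, 9 of the 13 rose and 1 fell (median 0.57), with ND6 at 0.93 (adjusted p = 0.000824), COX2 at 0.92 (adjusted p = 0.000742) and ND3 at -1.28 (adjusted p = 0.0462), while nuclear members had a median of -0.04. In the same comparison 25.6% of all genes rose and 22.4% fell. After CD40L+IL-4, ATP8, which overlaps its neighbour ATP6, fell by 2.06 on the log2 scale and the other 12 did not pass. Mitochondrial genes share sequence with nuclear copies, and counts of overlapping genes cannot be told apart.

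The 75 genes of the mitochondrial ribosome, which translates those 13 subunits, also differed in direction between the cultures. In the PU.1 SpiB DKO 17 rose and 0 fell in naive cells (median 0.19), 17 rose and 0 fell after CD40L+IL-4 (0.30), and 0 rose and 42 fell after LPS+IL-4 (-0.26), with Mrps10 at -0.73 and Mrps6 at -0.58. Of all genes, 18.2%, 12.5% and 25.6% rose and 16.6%, 12.7% and 22.4% fell in the same order. The difference of the effect between the cultures was lower after LPS+IL-4 for 54 of the 75 and higher for 0 (median -0.64). In control cells 59 of the 75 rose and 6 fell from naive to LPS+IL-4, led by Mrpl12 at 2.25 and Mrps10 at 2.05, and 12 of 14 citric acid cycle enzymes rose, led by Idh3a at 1.77. In that comparison 39.0% of all genes rose and 37.9% fell. The 84 cytosolic ribosomal proteins went the other way in control cells, with 17 higher and 49 lower from naive to LPS+IL-4, and in the naive PU.1 cKO 33 rose and 1 fell (median 0.40), against 2 and 1 of the members. In the naive PU.1 cKO 7.41% of all genes rose and 9.84% fell.

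Cox6a2, a heart and muscle type subunit of cytochrome c oxidase that was left out of the set, moved with the plasmacytoid dendritic cell markers in naive cells. It stood at 20.1 and 7.11 CPM in control, 9.04 and 8.84 in the PU.1 cKO, 148 and 96.9 in the SpiB KO and 187 and 150 in the PU.1 SpiB DKO, where the marker Siglech stood at 57.2 and 23.9, 33.3 and 39.9, 237 and 200, and 267 and 229 CPM. After either culture it was under 2 CPM in every library. The part of such cells in the levels of Cox6a2 was not tested.

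Of the B cell markers, 0, 0 and 4 of 10 rose and 4, 7 and 5 fell in the PU.1 SpiB DKO in naive cells, after CD40L+IL-4 and after LPS+IL-4, where 18.2%, 12.5% and 25.6% of all genes rose and 16.6%, 12.7% and 22.4% fell. Of the proliferation markers, 2 of 18, 1 of 19 and 3 of 19 rose and 2, 0 and 6 fell, near or below those shares except for the 6.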
